A study of Mus musculus with 74 samples.

Results

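The genes described here are 42 genes of fibroblasts, tendon and the non-collagen extracellular matrix, among 24940 genes counted in the ribosome profiling table of a study of the transcriptional repressor BCL6 in mouse quadriceps. They were taken as a named list by gene symbol, matched exactly in each table, and all 42 were found. They comprise 7 genes of fibroblast identity and surface, 8 small leucine-rich proteoglycans, 9 elastic fibre genes, 7 tendon genes, 4 adhesive and matricellular genes, 2 laminin chains and 5 genes of matrix processing. The list was read in ribosome footprints, in messenger RNA (mRNA), in whole-muscle RNA, in nascent RNA and in maps of the histone mark H3K27ac.

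The extracellular matrix of skeletal muscle is made mainly by interstitial fibroblasts, which carry Pdgfra, while tendon cells make tenomodulin and other tendon proteins under the transcription factors scleraxis and mohawk. Small leucine-rich proteoglycans such as decorin bind collagen fibrils and set their diameter, fibrillin and elastin form elastic fibres, and laminins form the basement membrane around each muscle fibre. Muscle fibres reach this matrix through the dystroglycan complex and integrins. BCL6 is a zinc finger protein that binds DNA and recruits corepressors.

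All animals were C57BL/6 mice and all tissue was quadriceps; ages are not stated. The RiboTag knockouts were AEC-Esr Cre (+):Bcl6 fl/fl; RiboTag (+) mice given tamoxifen (TMX; footprint libraries RPF_11688, RPF_11718, RPF_11721 and RPF_11722), and the RiboTag controls were AEC-Esr Cre (+); RiboTag (+) mice given TMX (RPF_11673, RPF_11734, RPF_11735 and RPF_11745), which therefore lacked the Bcl6 fl/fl allele. Each of these 8 animals gave 1 footprint library and 1 mRNA library (RNA_11688 and so on), and RiboTag values per library are in this order throughout. RiboTag is an allele that places an HA epitope on a ribosomal protein in cells that have expressed Cre, so that their ribosomes can be collected with HA beads. The promoter that drives AEC-Esr Cre is not spelled out in the labels. Footprints were RNA left on HA-collected ribosomes after T1 RNase digestion. The mRNA libraries are labelled polyA RNA, but an HA antibody is listed for them as well, so it is not certain whether they came from whole muscle or from collected ribosomes. Whole-muscle RNA came from 5 AEC-Esr Cre (+):Bcl6 fl/fl knockouts given TMX, 4 Cre-negative Bcl6 fl/fl mice given TMX and 4 AEC-Esr Cre (+):Bcl6 fl/fl mice given oil. Nascent RNA came from wild-type mice that received FX1, which blocks the corepressor site of BCL6, or DMSO, 5 mice each. H3K27ac was mapped in 3 sets, labelled acute, labelled chronic, and from mice that carry the numbers of muscle RNA animals. Each set held 3 AEC-Esr Cre (+):Bcl6 fl/fl knockouts given TMX and 3 Bcl6 fl/fl controls given TMX, whose genotype names no Cre. BCL6 binding was mapped in a single library. In bulk tissue such as this, fewer cells of a type and less RNA per cell cannot be told apart.

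Footprint libraries held 3248807 to 4370468 counts in genes and RiboTag mRNA libraries 6499561 to 13045854. Bcl6 itself had 97.4, 104.2, 86.8 and 69.7 CPM (reads scaled to library size) in the 4 knockout footprint libraries, against 182.3, 205.0, 115.9 and 251.1 CPM in the controls, a log2 fold change of -1.12 (adjusted p = 0.00201 by edgeR's quasi-likelihood test with Benjamini-Hochberg adjustment). In RiboTag mRNA it averaged 235.2 ± 40.9 CPM in knockouts and 214.0 ± 97.7 CPM in controls (SD, n = 4 each), and the log2 fold change of 0.14 did not pass (adjusted p = 0.840 by edgeR). In muscle RNA it fell by 0.23 on the deposited log2 scale against Cre-negative mice and by 0.31 against oil (adjusted p = 0.0132 and 0.00249 by limma). Reads were counted over whole genes, so reads outside a deleted stretch still count towards Bcl6. How far this bears on the Bcl6 values above was not tested.

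Ribosome footprints of the matrix list were lower in knockouts across nearly every role. Of the 42 genes, 37 were lowered and 0 raised at an adjusted p below 0.05, where 15.7% of all genes tested were lowered. The median log2 fold change over the list was -1.0, against 0.004 over all 12979 genes tested. The summed footprint level of the 42 genes was 3959, 6418, 3319 and 3775 CPM in the knockouts, against 8940, 9425, 8957 and 6522 CPM in the controls. The groups did not overlap, and knockout RPF_11718 and control RPF_11745 were nearest to each other. For 20 of the 42 genes every knockout library lay below every control library, which held for 11.9% of all genes tested.

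**Figure D1:**
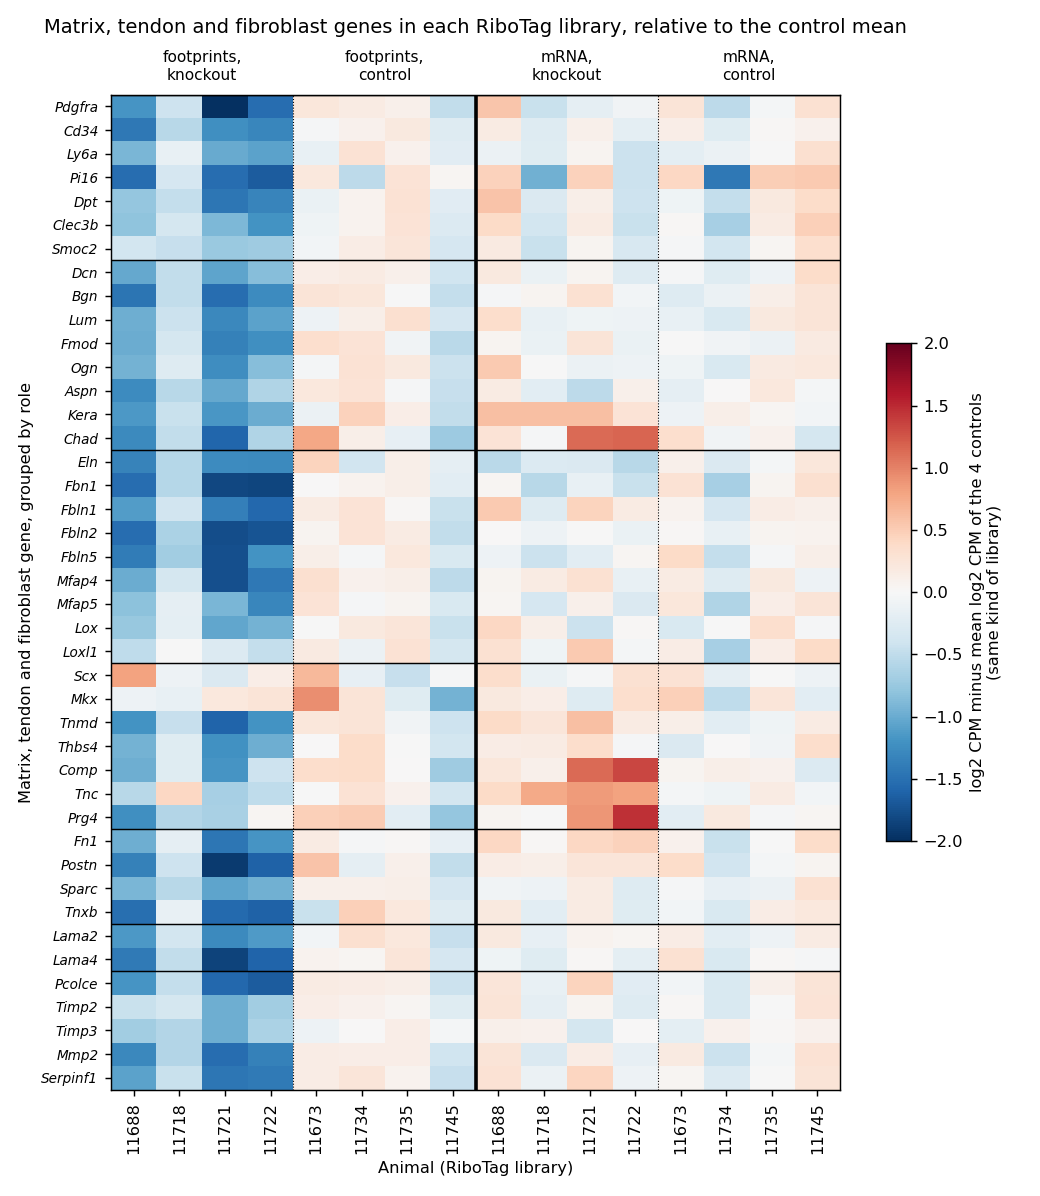
Each row is a gene and each column a RiboTag library, knockouts left of controls; colour is log2 CPM (with 0.5 added) minus the mean of the 4 control libraries of the same kind. Knockout footprints are blue for most genes, palest in RPF_11718, and the mRNA side of the map shows no such block.

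The fibroblast genes were lowered in footprints in 7 of 7 cases, with a median log2 fold change of -1.01. Cd34, a surface sialomucin of fibroblast progenitors that endothelial cells also carry, had 25.02, 46.1, 28.7 and 27.3 CPM in knockout footprints, against 67.1, 71.8, 77.5 and 56.9 CPM in controls. Every knockout lay below every control, and the log2 fold change was -1.14 (SE 0.18, adjusted p = 0.00147, edgeR). Pdgfra, the receptor that marks interstitial fibroblasts, had 82.8, 141.5, 44.5 and 65.0 CPM in knockouts, against 220.0, 211.9, 202.0 and 134.5 CPM in controls. Here the groups touched, because knockout RPF_11718 was above control RPF_11745, and the log2 fold change was -1.25 (adjusted p = 0.00602, edgeR). The others fell by between 0.62 for Smoc2, a secreted calcium-binding matrix protein, and 1.23 for Pi16, a marker of adventitial fibroblasts, on the log2 scale; Ly6a (-0.80), which encodes the progenitor surface antigen Sca-1, Dpt (-1.01), which encodes the decorin-binding protein dermatopontin, and Clec3b (-0.84), which encodes the plasminogen-binding protein tetranectin, lay between them.

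All 8 small leucine-rich proteoglycans were lowered in footprints, with a median of -0.98. Dcn, which encodes decorin, had 252.3, 363.3, 247.6 and 283.6 CPM in knockouts, against 563.1, 572.9, 551.9 and 386.4 CPM in controls. The groups did not overlap, with knockout RPF_11718 and control RPF_11745 again nearest to each other, and the log2 fold change was -0.90 (SE 0.15, adjusted p = 0.00167, edgeR). Biglycan (Bgn), the closest relative of decorin, fell by 1.2 on the log2 scale, lumican (Lum) by 0.97, fibromodulin (Fmod) by 1.01, osteoglycin (Ogn) by 0.85, asporin (Aspn) by 0.91, keratocan (Kera) by 1.00 and chondroadherin (Chad) by 1.08.

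Of the 9 elastic fibre genes, 8 were lowered in footprints and the median was -1.13. Fbln5, a fibulin that guides elastin onto microfibrils, had 24.7, 40.6, 19.2 and 28.5 CPM in knockouts, against 72.0, 65.2, 76.4 and 53.3 CPM in controls. Every knockout was below every control, with a log2 fold change of -1.28 (SE 0.20, adjusted p = 0.0013, edgeR). Fbln2, another fibulin, had the lowest fold change of the 42 genes at -1.41, with 71.5, 134.0, 60.3 and 61.9 CPM in knockouts, against 214.2, 251.0, 231.9 and 147.3 CPM in controls. Fibrillin-1 (Fbn1), the core of microfibrils, fell by 1.38 on the log2 scale, elastin (Eln) by 1.18, fibulin-1 (Fbln1) by 1.12, the microfibril-associated proteins Mfap4 and Mfap5 by 1.13 and 0.82, and lysyl oxidase (Lox), which cross-links collagen and elastin, by 0.76. Loxl1, a lysyl oxidase relative, did not pass, at 32.8, 46.4, 38.5 and 33.2 CPM in knockouts and 52.9, 43.0, 56.9 and 36.4 CPM in controls (-0.37, adjusted p = 0.121, edgeR).

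The tendon genes were divided, with 3 of 7 lowered in footprints and 1 of 7 with a higher mean. Tnmd, which encodes the tendon membrane protein tenomodulin, had 46.8, 78.4, 35.3 and 47.1 CPM in knockouts, against 126.5, 129.3, 102.6 and 81.0 CPM in controls. No knockout reached a control, and the log2 fold change was -1.13 (adjusted p = 0.0033, edgeR). Thrombospondin-4 (Thbs4) fell by 0.86 and cartilage oligomeric matrix protein (Comp), both pentameric collagen-binding proteins, by 0.76. The transcription factor Scx, which specifies tendon progenitors, had 10.4, 5.3, 4.6 and 6.4 CPM in knockouts, against 9.3, 5.0, 4.0 and 5.6 CPM in controls (0.09, adjusted p = 0.874), and Mkx, the homeobox factor mohawk, gave -0.16 (adjusted p = 0.767, edgeR). Both are among the lowest of the 42 genes in footprints, so their fold changes carry standard errors of 0.34 and 0.35. Prg4, the lubricant lubricin, gave -0.68 and Tnc, the tenascin of tendon and of regenerating muscle, -0.32, and neither passed (adjusted p = 0.10 and 0.293, edgeR).

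The adhesive proteins, laminin chains and matrix processing genes were lowered in footprints without exception, in 4 of 4, 2 of 2 and 5 of 5 cases. Sparc, a collagen-binding matricellular protein, had 281.2, 359.9, 254.2 and 272.8 CPM in knockouts, against 567.1, 569.7, 576.0 and 420.0 CPM in controls (-0.91, SE 0.13, adjusted p = 8.96e-04, edgeR). Mmp2, the gelatinase that trims basement membranes, had 110.2, 179.8, 93.9 and 105.0 CPM in knockouts, against 298.4, 296.1, 294.9 and 204.0 CPM in controls (-1.20, SE 0.19, adjusted p = 0.00143, edgeR). Timp3, an inhibitor of such proteases that stays bound to the matrix, had the smallest adjusted p of the list (6.09e-04), with 79.2, 85.3, 65.2 and 82.6 CPM in knockouts, against 119.2, 128.6, 141.6 and 125.3 CPM in controls (-0.76, SE 0.10). For all 3 genes the knockout and control libraries were separate. Fibronectin (Fn1), the adhesive glycoprotein that cells assemble into fibrils, fell by 0.92 on the log2 scale, periostin (Postn) by 1.32, tenascin-X (Tnxb) by 1.1, the muscle laminin chain Lama2 by 1.00, the vessel and nerve chain Lama4 by 1.31, the procollagen protease enhancer Pcolce by 1.21, the inhibitor Timp2 by 0.65 and the secreted serpin Serpinf1 by 1.11.

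Genes of other cell types in the muscle moved in the same direction in footprints. Endothelial genes were lowered in 10 of 12 cases (median -1.46), macrophage and myeloid genes in 12 of 12 (-1.30), pericyte and smooth muscle genes in 6 of 7 tested (-1.11), Schwann and nerve genes in 3 of 6 tested (-1.19), satellite cell genes in 3 of 7 (-0.68) and collagen chains in 15 of 16 (-1.18). Muscle fibre genes were lowered in 6 of 18 cases with a median of -0.20, and matrix receptors of the muscle fibre in 7 of 14 with 1 raised (-0.19). Of all genes tested in footprints 15.7% were lowered, a smaller share than in either of these lists. The TGF-beta pathway and collagen processing list had 13 lowered and 4 raised of 24 (-0.62). Summed footprint levels ranged from 192.8 to 479.2 CPM in knockouts and from 541.7 to 951.1 CPM in controls for the endothelial list, and from 399.6 to 880.2 CPM in knockouts and from 1125 to 1513 CPM in controls for the macrophage list. Those of the muscle fibre list spanned 52949 to 76223 CPM in knockouts and 58370 to 71591 CPM in controls. No gene of these lists was at 0 in every library. Their part in the lower footprints of the matrix genes was not tested. These lists were written with earlier results of these data known, and CPM is a share of a library, so a fall of 1 list is measured relative to the genes that make up the rest.

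**Figure D2:**
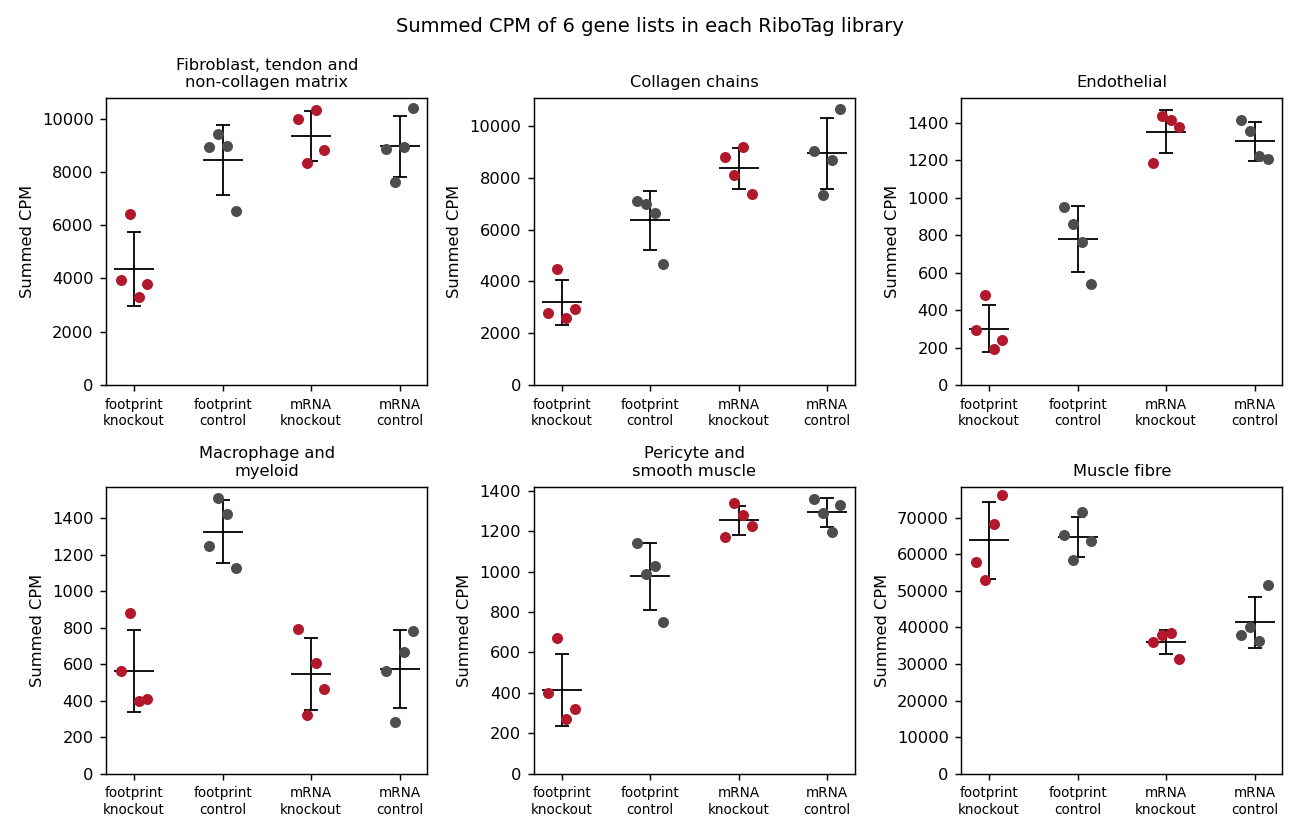
Points are the summed CPM of a gene list in each RiboTag library, knockouts left of controls, with the mean ± SD over 4 animals in black. Footprint sums of the matrix list average 4368 CPM in knockouts and 8461 CPM in controls, the endothelial, macrophage, pericyte and collagen panels show the same step, and the muscle fibre panel does not.

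The messenger RNA of the same animals did not follow the footprints. In RiboTag mRNA 2 of 42 genes were raised and 0 lowered, where 4.21% of all genes were called in either direction, and the median log2 fold change over the list was 0.02, against 0.01 over all genes tested. Summed over the 42 genes, mRNA averaged 9355 ± 946 CPM in knockouts and 8956 ± 1136 CPM in controls (SD, n = 4 each), a change of 4.46%, while the change in summed footprints was -48.4%. The endothelial list, at +4.02% in mRNA and -61.4% in footprints, and the macrophage list, at -4.71% and -57.5%, showed the same contrast between the 2 kinds of library.

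The 2 genes that passed in RiboTag mRNA were Tnc and Kera. Tnc had 104.3, 134.6, 144.0 and 139.6 CPM in knockouts, against 77.7, 75.2, 89.1 and 77.0 CPM in controls. Every knockout lay above every control, and the log2 fold change was 0.71 (SE 0.11, adjusted p = 0.00339, edgeR). Kera, which encodes a keratan sulphate proteoglycan, had 149.9, 151.5, 151.1 and 120.5 CPM in knockouts, against 92.1, 107.7, 101.5 and 95.8 CPM in controls, also without overlap (0.53, SE 0.10, adjusted p = 0.00783, edgeR). All 7 tendon genes had a higher mean in knockout mRNA (median 0.35), but of these only Tnc passed. For Comp (0.80, adjusted p = 0.10), Prg4 (0.73, adjusted p = 0.184) and the proteoglycan Chad (0.70, adjusted p = 0.157, edgeR) the higher means rested on RNA_11721 and RNA_11722: Comp had 145.3, 132.8, 271.4 and 312.8 CPM in the 4 knockouts, against 128.7, 134.7, 131.4 and 102.3 CPM in controls. Prg4 had 116.7, 111.5, 205.6 and 309.2 CPM in knockouts, against 96.8, 127.5, 110.3 and 114.8 CPM in controls. In RNA_11688 and RNA_11718 these genes were near the control levels.

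**Figure D3:**
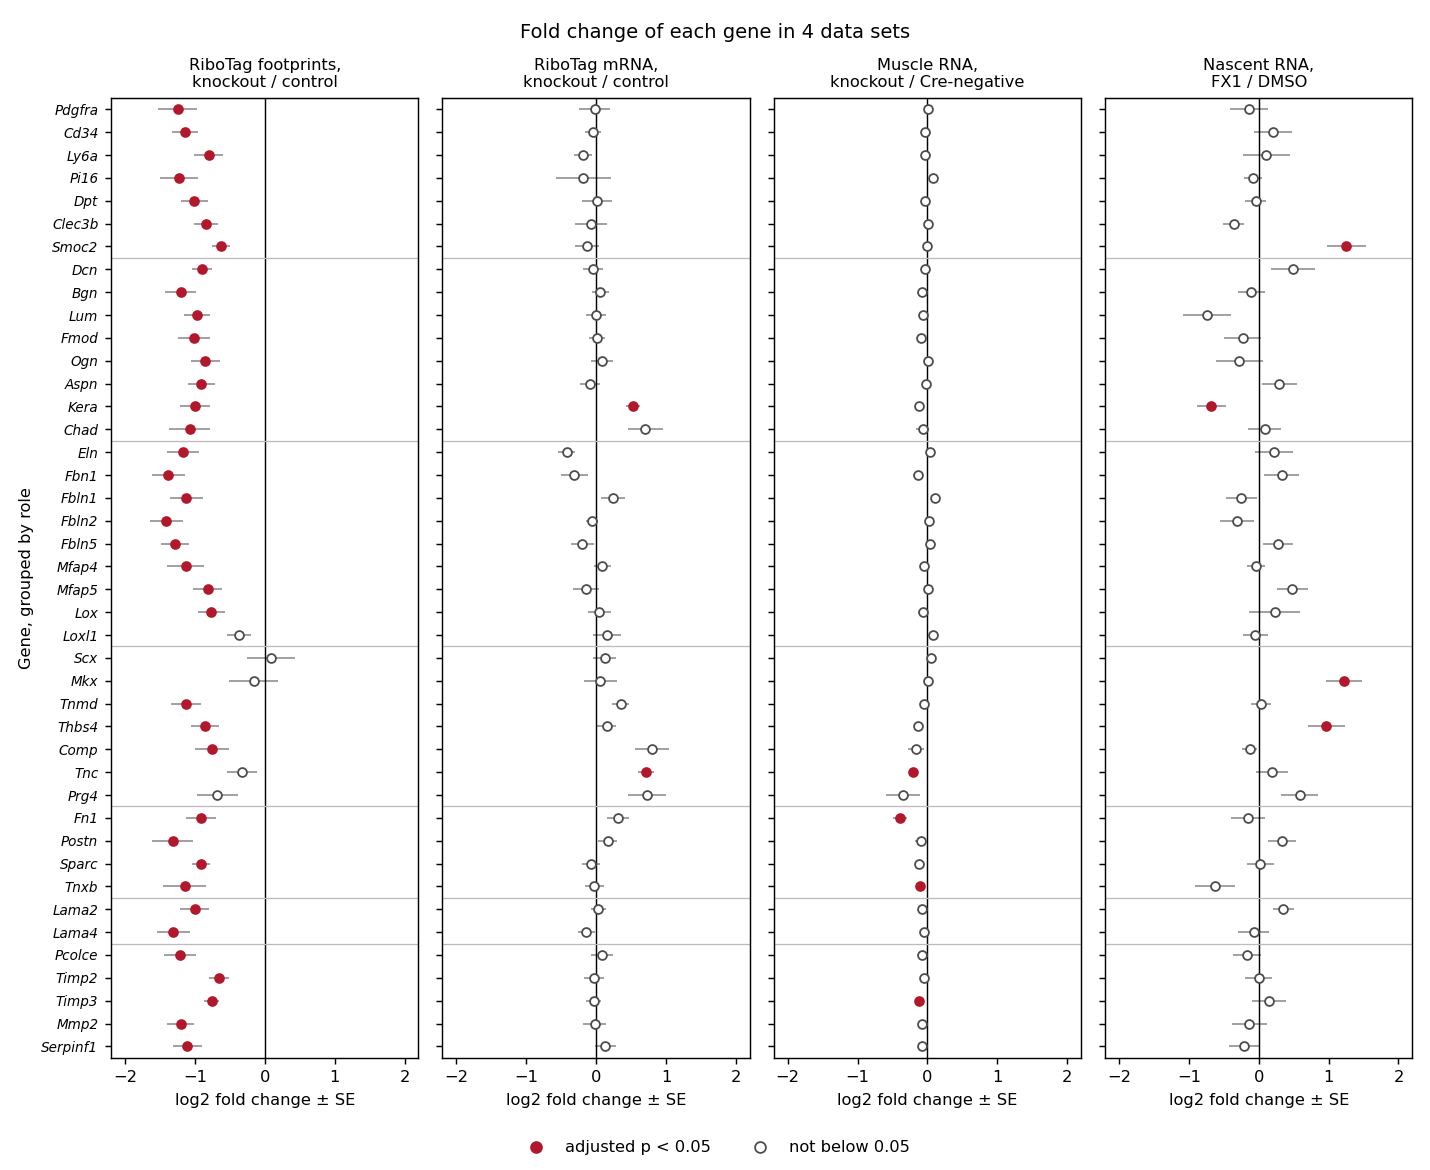
Each point is the log2 fold change of a gene, with its standard error, in footprints, RiboTag mRNA, muscle RNA against Cre-negative mice and nascent RNA; filled points have an adjusted p below 0.05. The footprint panel lies left of 0 for 41 of 42 genes, while 2 points are filled in the mRNA panel and 4 in the muscle RNA panel.

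The difference between footprint and mRNA changes was tested as an interaction in 1 model over the 16 libraries. It is called the change in translation efficiency here, though the labels do not settle whether both kinds of library came from the same cells. How far it reflects translation was not tested. Of the 42 genes, 25 had a lowered translation efficiency in knockouts and 0 a raised one, where 6.98% of all genes tested were lowered, and the list median was -1.0, against 0.05 over all genes. Endothelial genes were lowered in 11 of 12 cases (median -1.48) and pericyte and smooth muscle genes in 6 of 8 (-1.44). Collagen chains were lowered in 13 of 16 (-0.99), macrophage and myeloid genes in 3 of 12 (-1.10), and Schwann and nerve genes in 1 of 8 (-1.12). Muscle fibre genes were lowered in 0 of 18 cases (0.06), and matrix receptors of the muscle fibre in 5 of 14 (-0.18). Among the 42 genes the smallest adjusted p belonged to Kera (-1.48, SE 0.24, adjusted p = 0.00448), Tnmd (-1.44, SE 0.26, 0.00595), Fbln2 (-1.31, SE 0.27, 0.00891), Cd34 (-1.06, SE 0.22, 0.00933), Bgn (-1.22, SE 0.27, 0.0114) and Timp3 (-0.69, SE 0.16, 0.0128, all edgeR). The mRNA of these genes overlapped between the groups for Tnmd (113.3, 102.7, 131.8 and 97.8 CPM in knockouts, against 94.1, 75.3, 82.1 and 97.9 CPM in controls), Cd34 (239.6, 177.8, 227.9 and 185.0 CPM in knockouts, against 234.1, 179.6, 215.6 and 226.1 CPM in controls) and Fbln2 (261.4, 241.2, 258.4 and 238.0 CPM in knockouts, against 264.3, 235.4, 268.7 and 272.5 CPM in controls). Timp3 mRNA overlapped too, at 458.6, 452.6, 333.7 and 430.4 CPM in knockouts and 374.4, 453.4, 435.9 and 451.5 CPM in controls. For Kera the mRNA was higher in every knockout and the footprints of these knockouts were lower on average, with 24.1, 39.7, 23.8 and 27.1 CPM of footprints in knockouts, against 50.1, 74.8, 59.3 and 38.4 CPM in controls. Its footprint groups overlapped, because knockout RPF_11718 lay above control RPF_11745. Bgn mRNA stood at 330.4, 348.0, 412.6 and 321.8 CPM in knockouts and 280.6, 307.5, 363.3 and 402.6 CPM in controls, with overlapping groups, while its footprints stood at 62.0, 121.2, 59.2 and 71.5 CPM in knockouts and 205.8, 200.7, 169.9 and 123.3 CPM in controls, without overlap.

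By role, a lowered translation efficiency was called for 7 of 8 proteoglycans, 4 of 7 tendon genes, 3 of 4 adhesive genes, 2 of 2 laminins, 4 of 5 processing genes, 4 of 9 elastic fibre genes and 1 of 7 fibroblast genes. The fibroblast genes had estimates between -1.18 for Pdgfra and -0.45 for Smoc2, all below 0. Tnc was called (-0.99, adjusted p = 0.025), and so were Chad at -1.73, the lowest estimate of the list, Comp at -1.51 and Postn at -1.44. Chad cannot be told apart here from Acsf2, a gene that overlaps it and gave -1.67. Prg4 (-1.35, adjusted p = 0.0526), Pdgfra (adjusted p = 0.054) and Fbn1 (-1.04, adjusted p = 0.054, edgeR) fell just outside, and Scx was at 0.01. With the animal as a replicate block 33 of the 42 genes passed, the 25 among them, and Prg4 was then called (adjusted p = 0.0126, edgeR). The count depended on single animals: without both libraries of the RPF_11721 knockout it was 5, without the RPF_11734 control it was 5, and without the RPF_11718 knockout it was 38, while the list median stayed between -1.37 and -0.85. Calls over all genes moved as well, from 310 to 1892 in either direction when 1 animal was left out. The call for Tnc was lost without RPF_11721, RPF_11722, RPF_11673, RPF_11734 or RPF_11735 (adjusted p = 0.0549 to 0.110, edgeR) and that for Bgn without RPF_11734 or RPF_11721 (0.0568 and 0.0582). In footprints alone the count stayed between 34 and 39 when any 1 library was left out.

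Footprints were also set against mRNA within each genotype, where TMM scaling fixes the middle of all genes at about 0. In knockouts 32 of 42 genes had fewer footprints than mRNA and 2 had more, where 38.5% of all genes were lowered and 36.0% raised, with a list median of -1.05. In controls 14 had fewer and 8 more, where 36.4% were lowered and 35.6% raised, and the list median was -0.02. The control ratios ran in both directions: Lama2 (1.97), Fbn1 (1.84), Pdgfra (1.53) and Tnc (1.11) were the highest on the log2 scale, and Timp2 (-1.86), Timp3 (-1.74), Eln (-1.71) and Cd34 (-1.65) the lowest. Lama2 had 484.7, 634.0, 583.2 and 365.7 CPM in control footprints, against 145.2, 113.5, 122.9 and 146.9 CPM in control mRNA, and Timp2 had 132.0, 127.9, 124.8 and 101.7 CPM in control footprints, against 445.9, 354.9, 434.8 and 531.2 CPM in control mRNA. In knockouts Lama2 (0.97) and Fbn1 (0.81) were the 2 raised genes, but without the RPF_11718 knockout Fbn1 was at 0.35 and no longer called (adjusted p = 0.102, edgeR). The lowest ratios in knockouts were again those of Cd34 (-2.71), Timp2 (-2.44), Timp3 (-2.42) and Eln (-2.42). Across the 42 genes the control ratio had a Spearman correlation of 0.30 with exon length and a Pearson correlation of 0.42 with its logarithm, given as a description, since the genes share libraries and length enters every count. Ribosomes read only the translated part of a transcript, whose length is not given, so the order of genes by this ratio is not an order of translation. The 2 contrasts share 1 fit and 1 scaling, in which the libraries of an animal were not paired. With the animal as a replicate block all 22 calls in controls were kept and 2 were gained. In knockouts all 34 calls were kept and 3 were gained.

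**Figure D4:**
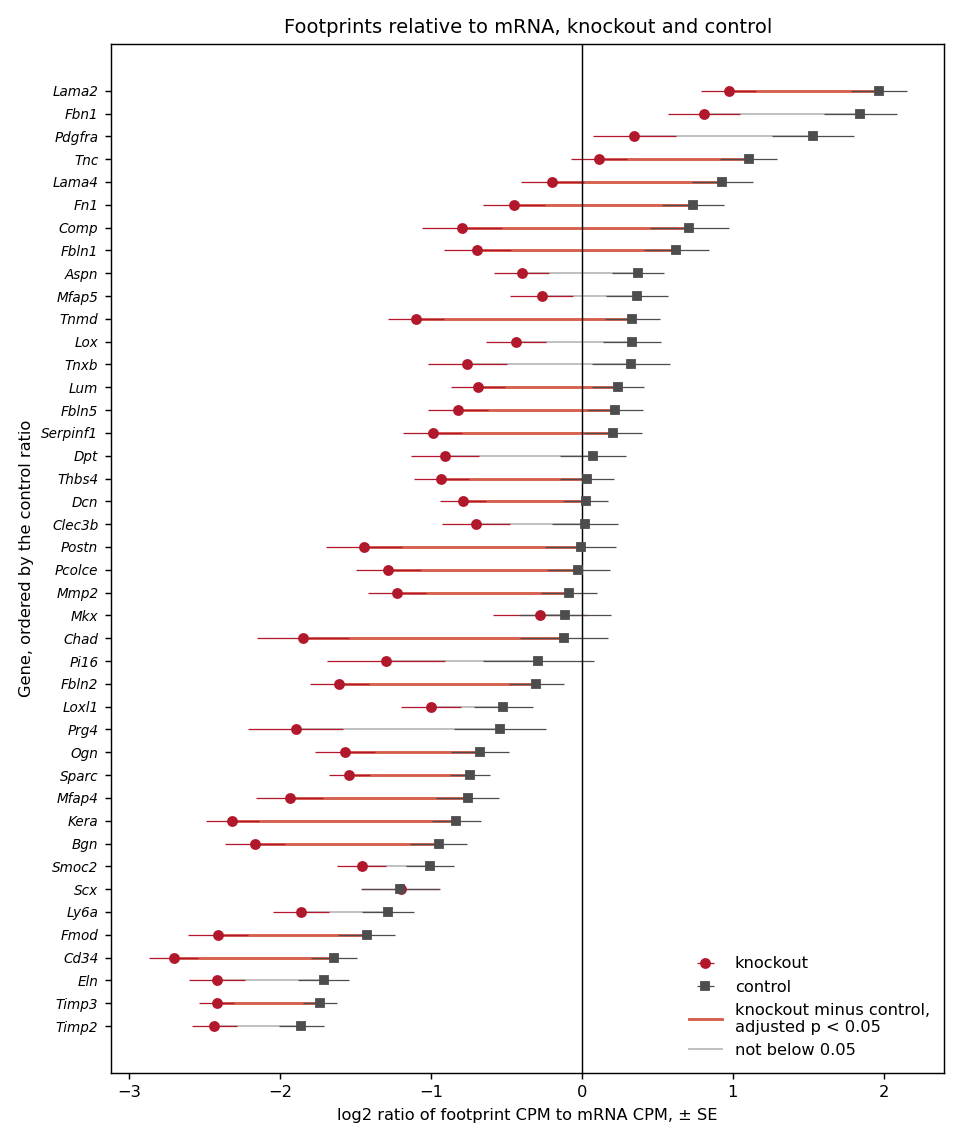
For each gene, the log2 ratio of footprint to mRNA CPM (± SE) in knockouts (red circles) and controls (grey squares), ordered by the control ratio; red lines join the pairs whose difference had an adjusted p below 0.05. The knockout point lies left of the control point for every gene except Scx, where they coincide.

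Per kilobase of exon, a scale for comparing mRNA between genes, Sparc (340 CPM per kb), Dcn (272), Fmod (244), Thbs4 (210) and Serpinf1 (180) were the most abundant of the 42 in control mRNA. These genes reached 3.80, 3.03, 2.97, 2.75 and 2.24 reads per exon base in an mRNA library, near the counting limit of 5 reads per position, so their levels and order may be understated; that effect was not tested. Mkx (3.19), Fbln5 (9.75), Pdgfra (10.1), Tnc (11.3) and Scx (12.3 CPM per kb) were the least. In footprints per kilobase Dcn stood at 153 ± 28.5 CPM in knockouts and 276 ± 47.2 CPM in controls, Thbs4 at 122 ± 39.2 and 215 ± 44.9, Serpinf1 at 99.3 ± 35.1 and 207 ± 40.5, and Sparc at 111 ± 17.7 and 203 ± 28.7 (knockouts before controls, SD, n = 4 each). The SDs of Dcn, Serpinf1 and Thbs4 in controls overlap, so their order among each other is not resolved. Exon length is also not the length that ribosomes read, so these footprint values compare groups within a gene and do not rank genes.

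Libraries were not evenly placed within their groups. Among knockout footprints RPF_11718 was the highest for 38 of 42 genes, and among control footprints RPF_11745 was the lowest for 37 of 42. Of 10 gene lists, the 42 genes included, 9 had their highest knockout sum in RPF_11718, the muscle fibre list being the exception, and 8 had their lowest control sum in RPF_11745. Leaving out RPF_11718 or RPF_11745 gave 39 lowered genes in footprints in either case. The authors' counting kept at most 5 reads per position in RiboTag libraries, and 16 of the 42 genes reached 1 read per exon base or more in at least 1 library, near that limit. Of these, 3 (Dcn, Thbs4 and Serpinf1) reached it in a footprint library and the other 13 in mRNA alone. In footprints 16 of those 16 were lowered (median -0.91), and 21 of the other 26 (-1.06).

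Whole-muscle RNA of other knockouts showed small differences in a few of these genes. Its values were deposited on a log2 scale whose transform is not named, and such scales can compress fold changes. Against Cre-negative mice 4 of 42 genes were lowered and 0 raised, where 13.8% of all genes were called, with a list median of -0.05. Against oil-treated Cre-positive mice 6 were lowered and 1 raised, where 21.7% were called, with a median of -0.06. Both comparisons share the 5 knockouts, and in each the share of the 42 genes called in either direction was no larger than that of all genes. Lowered alone were 1252 of all 14964 genes against Cre-negative mice and 1875 against oil. In each comparison 30 of the 42 genes had a fold change below 0. Of all genes, 7197 and 7219 did, and the median over all genes was 0.002 in both.

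Fn1 was called in both comparisons. It read 10.78, 10.79, 10.56, 10.65 and 10.64 in the 5 knockouts, against 10.94, 11.43, 11.21 and 10.74 in Cre-negative mice (-0.39, SE 0.10, adjusted p = 0.0216, limma). The groups overlapped through 1 Cre-negative animal. This call was lost in 4 of 12 alternatives, among them quantile normalization (adjusted p = 0.0821, limma). In the oil table the knockouts read 10.79, 10.79, 10.56, 10.66 and 10.65, against 10.86, 10.95, 11.19 and 10.93 in oil mice, without overlap (-0.30, SE 0.06, adjusted p = 0.00402, limma).

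Tnxb, the tenascin that spaces collagen fibrils, was lowered in both as well. It read 10.05, 9.95, 10.01, 9.96 and 9.96 in knockouts, against 10.14, 10.13, 10.09 and 10.02 in Cre-negative mice (-0.11, adjusted p = 0.029). In the oil table it read 10.08, 9.98, 10.04, 9.99 and 9.99 in knockouts, against 10.11, 10.24, 10.41 and 10.15 in oil mice (-0.21, adjusted p = 0.00965, limma). Only the second pair of groups was separate. The call against Cre-negative mice was lost in 7 of 12 alternatives, among them quantile normalization (adjusted p = 0.184, limma), and that against oil in 0 of 12.

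Tnc went the other way from RiboTag mRNA. In muscle RNA it read 9.13, 9.30, 9.17, 9.25 and 9.23 in knockouts, against 9.39, 9.56, 9.50 and 9.27 in Cre-negative mice (-0.21, SE 0.05, adjusted p = 0.0153, limma), with 1 Cre-negative animal inside the knockout range. Against oil it gave -0.18 and did not pass (adjusted p = 0.102). Timp3 read 10.82, 10.70, 10.87, 10.78 and 10.78 in knockouts, against 10.84, 10.92, 10.92 and 10.94 in Cre-negative mice (-0.11, adjusted p = 0.0338, limma), again overlapping. The Timp3 call was lost in 8 of 12 alternatives, among them quantile normalization (adjusted p = 0.554, limma). Without Cre-negative animal P1906 none of the 42 genes passed in that comparison (Tnc adjusted p = 0.0531), and without P1909 there were 8.

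The remaining calls came from the oil comparison, which under quantile normalization gave 4 raised and 3 lowered genes in place of 1 and 6, with Lama2 (adjusted p = 0.0556), Mmp2 (0.214) and Lum (0.0787, limma) no longer called. Scx was the 1 raised gene, at 6.80, 6.80, 6.86, 6.77 and 6.87 in knockouts, against 6.69, 6.64, 6.63 and 6.68 in oil mice, without overlap (0.16, SE 0.03, adjusted p = 0.00165, limma). Clec3b read 8.52, 8.36, 8.46, 8.44 and 8.54 in knockouts, against 8.62, 8.60, 8.62 and 8.53 in oil mice (-0.13, adjusted p = 0.0227). Lama2 read 9.88, 9.79, 9.78, 9.78 and 9.80 in knockouts, against 9.84, 10.03, 10.12 and 9.90 in oil mice (-0.17, adjusted p = 0.0231, limma). In both genes 1 knockout reached into the oil range.

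Mmp2 and Lum were the weakest of these calls. Mmp2 read 10.04, 9.99, 9.89, 10.02 and 10.06 in knockouts, against 10.03, 10.13, 10.18 and 10.15 in oil mice (-0.12, adjusted p = 0.0331), and Lum 9.08, 9.09, 8.91, 9.02 and 9.14 in knockouts, against 9.08, 9.23, 9.31 and 9.16 in oil mice (-0.15, adjusted p = 0.0494, limma). The collagen chains, measured beside them, were lowered in 8 of 16 cases against Cre-negative mice and 11 of 16 against oil. Without oil animal P1897 16 of the 42 genes were called, and without P1904 3.

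In nascent RNA, FX1 gave 3 raised and 1 lowered gene among 41 tested, where 21.6% of all genes were called, and Scx fell below the filter on low values. Mkx read 9.64, 9.85, 8.53, 9.83 and 9.94 after FX1, against 8.33, 8.60, 8.54, 7.85 and 8.37 after DMSO (1.22, SE 0.25, adjusted p = 0.00607, limma). The third FX1 mouse lay within the DMSO range. Thbs4 read 11.26, 11.51, 10.34, 11.58 and 11.80 after FX1, against 10.01, 10.59, 10.74, 9.89 and 10.44 after DMSO (0.97, adjusted p = 0.0225, limma), with the same mouse inside the DMSO range. The Thbs4 call was lost in 5 of 14 alternatives (adjusted p = 0.0513 to 0.0570, limma): quantile normalization, the replicate block, and without DMSO mouse 1, FX1 mouse 2 or FX1 mouse 5.

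Smoc2 had no overlap, at 12.11, 12.21, 11.42, 10.59 and 10.96 after FX1, against 9.97, 10.33, 10.40, 9.98 and 10.34 after DMSO (1.25, SE 0.28, adjusted p = 0.00951, limma). The gene 4930474M22Rik overlaps Smoc2 and gave 1.21 (adjusted p = 0.00462), and since reads were counted without a stated strand setting the 2 cannot be told apart. Kera was the lowered gene, at 4.60, 5.20, 4.89, 5.46 and 5.31 after FX1, against 5.87, 6.09, 5.99, 5.18 and 5.73 after DMSO (-0.68, adjusted p = 0.0336, limma). Its groups overlapped through 1 DMSO mouse. The Kera call was lost in 9 of 14 alternatives (adjusted p = 0.0582 to 0.0944, limma): no filter on low values (0.0644), quantile normalization (0.0839), the replicate block (0.0944), and without DMSO mouse 1, 2, 3 or 5 or FX1 mouse 1 or 2. In the same libraries 8 of 18 muscle fibre genes were lowered, with a median of -0.70, whose part in these values was not tested.

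BCL6 peaks were assigned to 15 of the 42 genes, 26 peaks of 10925 in the deposited list, which came from 1 library. That is 35.7% of the 42, where 6246 of all 24940 genes (25%) had an assigned peak. Within 1000 bp of a start, 4 of the 42 genes (9.52%) had a peak, Tnc, Scx, Timp3 and the laminin gene Lama4, where 1646 of all genes (6.6%) had one, and neither share was tested against that of all genes. The authors' peak score at Tnc was 606.4, rank 6 of the list, and the peak lay at chr4:64047320-64047540 (mm10), 415 bp before the start. Scores at the others were 60.0 for Scx, 15.9 for Timp3 and 14.7 for Lama4. Promoter sequences of Tnc and Timp3 are shown because these are the genes with a called H3K27ac window on a BCL6 peak. They come from RefSeq on GRCm38.p6, run from 250 bases before to 50 bases after the start, and carry no capitals because the motif searched has no match in them.

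Tnc, chr4:64046966-64047265, minus strand: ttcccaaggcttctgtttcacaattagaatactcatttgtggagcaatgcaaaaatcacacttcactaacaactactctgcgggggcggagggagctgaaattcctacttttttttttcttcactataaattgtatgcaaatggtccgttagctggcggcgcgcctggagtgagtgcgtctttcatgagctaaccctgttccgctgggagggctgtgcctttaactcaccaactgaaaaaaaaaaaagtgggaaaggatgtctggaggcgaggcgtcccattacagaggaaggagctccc
Timp3, chr10:86300162-86300461, plus strand: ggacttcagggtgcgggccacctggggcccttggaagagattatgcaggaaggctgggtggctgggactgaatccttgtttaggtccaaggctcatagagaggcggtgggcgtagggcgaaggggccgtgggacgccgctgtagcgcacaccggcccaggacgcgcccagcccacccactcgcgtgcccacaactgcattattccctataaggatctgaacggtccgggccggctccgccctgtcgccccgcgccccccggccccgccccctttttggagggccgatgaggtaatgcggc

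The motif was TTCCNNGAA, a general form of the BCL6 and STAT site, searched on both strands (reverse TTCNNGGAA). It was found in 4.81% of 32851 promoter windows of this length and in 0 of 29 windows of the 25 matrix genes that had one. The Timp3 window overlaps the Timp3 promoter peak, and the Tnc window does not reach the Tnc peak, so the bases under that peak are not printed.

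H3K27ac marks promoters and enhancers in use. It was read in 1000 bp windows on BCL6 peaks in 3 knockouts and 3 controls of the muscle RNA animals. Of 18 windows assigned to the matrix genes and tested, 2 were called, where 19.5% of all windows were. The Tnc window at chr4:64046930-64047930, which spans the promoter sequence above, had 27.7, 30.8 and 33.5 tags per 10000000 in knockouts mKO_1896, mKO_1900 and mKO_1907, against 7.33, 7.69 and 8.58 in controls Ctr_1898, Ctr_1899 and Ctr_1906. All 3 knockouts were above all 3 controls, and the log2 fold change was 1.84 (SE 0.23, adjusted p = 8.76e-05, limma). Mice of the same number (P1896 and so on) are among those with muscle RNA, where Tnc read 9.30, 9.17 and 9.25 in these knockouts, against 9.39, 9.56 and 9.50 in these controls, so the mark was higher and the RNA lower in the same animals.

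The Timp3 window, 21049 bp after the start in an intron at chr10:86320961-86321961, had 175.9, 182.6 and 155.5 tags per 10000000 in knockouts, against 130.6, 128.1 and 104.0 in controls, without overlap (0.50, SE 0.12, adjusted p = 0.0111, limma). Without knockout mKO_1900 this window was not called (0.46, adjusted p = 0.0537, limma). At the Timp3 promoter the fold change was 0.01. A second Tnc window, at -31304 bp from the start, gave -0.60 and did not pass (adjusted p = 0.123). Over all windows 1436 were raised and 126 lowered, and the median was 0.14 in this test. With edgeR and TMM on recovered reads 1009 were raised and 380 lowered and the median was -0.02, a shift to which these values are relative. That test called 4 of 21 windows of these genes, the Tnc and Timp3 windows among them, where 1389 of all 9167 windows were called. The others were a second Timp3 window and a Sparc window, and not all 4 were raised.

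In the other 2 sets, counted in regions found in the acute samples, no promoter region of the matrix genes was called. In the acute set 0 of 24 regions passed by limma, where 0.154% of all regions did, 1 had an unadjusted p below 0.05 (Lox, 1.28, adjusted p = 0.166), and edgeR on recovered reads gave 0. In the chronic set 0 of 23 passed, where 0.254% did, 1 had an unadjusted p below 0.05 (Scx, 0.62, adjusted p = 0.641), and edgeR on recovered reads gave 0 as well. No region of these sets lay within 3000 bp of the Tnc peak.

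**Figure D5:**
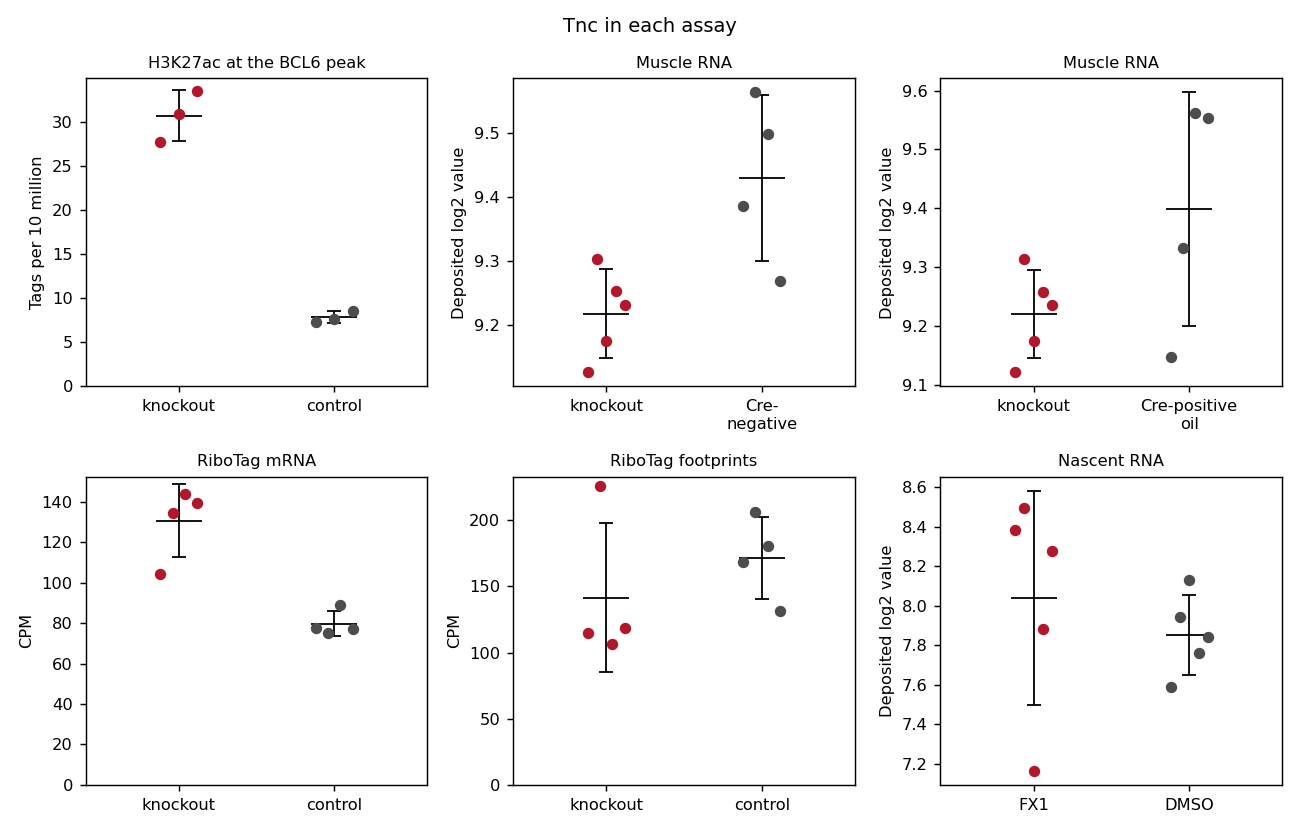
Tnc in 6 data sets, with points for single mice and mean ± SD in black, the knockout or FX1 group on the left of each panel; log2 axes do not start at 0. Knockouts were higher in H3K27ac at the promoter peak and in RiboTag mRNA, lower in muscle RNA against Cre-negative mice, and overlapped the controls in footprints.

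For Tnc the assays therefore gave different directions. In footprints it had 114.7, 225.7, 106.6 and 118.6 CPM in knockouts, against 168.1, 206.1, 180.9 and 131.7 CPM in controls. Knockout RPF_11718 was above all 4 controls while the other 3 knockouts were below all 4, and without that library the log2 fold change was -0.64 (adjusted p = 0.00256, edgeR). In nascent RNA FX1 gave 0.19 (adjusted p = 0.597, limma).

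Several of the 42 genes share their place in the genome with another gene, and counting without a stated strand setting cannot separate them. This held for 11 genes: Pdgfra, Cd34, Smoc2, Ogn, Aspn, Chad, Scx, Prg4, Lama2, Timp2 and Timp3. Timp3 lies within Syn3 on the opposite strand, and Syn3 had a mean of 435 CPM in control mRNA, against 429 CPM for Timp3 itself, and a footprint fold change of -0.72 (adjusted p = 7.61e-04, edgeR). Gm16897, which overlaps Cd34, gave -1.25 in footprints. Acsf2, which overlaps Chad and had a mean of 138 CPM in control mRNA, gave 0.69 in mRNA, -1.03 in footprints and -1.67 in translation efficiency. Cenpp, which overlaps Ogn and Aspn and had a mean of 312 CPM in control mRNA, gave -0.81 in footprints (adjusted p = 0.00397, edgeR) and -0.86 in translation efficiency. Around Scx and Prg4 the overlapping genes Bop1 (0.16) and Tpr (0.34, adjusted p = 0.0116) were not lowered, so reads shared with them could be part of the counts of Scx and Prg4; that part was not tested.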

How the data were processed

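Values came from quadriceps muscle of mice, in tables deposited by the authors. RiboTag footprint and mRNA tables hold whole-number counts per gene, kept at 5 reads per position at most, per the file headers. Muscle and nascent RNA tables hold deposited log2 values beside the authors' own log2 fold changes and adjusted p-values, and the transform is not named. H3K27ac tables hold a signal in tags scaled to 10000000, per the file headers, and the deposited BCL6 peak list holds a score per peak. The submitters' processing notes name STAR 2.4.0, Bowtie 1.2, HOMER, DESeq2 1.14.1 and mm10.

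The quasi-likelihood test of edgeR 4.0.16 in R 4.3.3, with TMM scaling and a minimum count of 10, was used on counts, and printed CPM are scaled by TMM over all 16 RiboTag libraries. For log2 values limma 3.58.1 was used after leaving out the lowest 40% of genes by mean, and H3K27ac with limma on log2(signal + 1) over regions with a mean signal of at least 10. P-values were adjusted over all features by Benjamini and Hochberg and called below 0.05. The scripts were tested on simulated data. H3K27ac signals were whole reads within 0.05 after unscaling, in 100% of the values.

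The 42 genes and all other lists were chosen with earlier results of these data known. The text gives every called gene per sample where 6 or fewer passed, otherwise the 6 with the smallest p, and for footprints against mRNA the 4 highest and 4 lowest; other values shown per sample were chosen after they were seen. Alternatives were DESeq2 1.42.0, RLE factors, quantile normalization, no low filter, no variance trend, other pseudocounts and promoter distances, a replicate block and leaving out each library; leaving out genes near the position limit and edgeR on recovered reads were chosen after seeing the data. The animal number pairs footprint and mRNA libraries of 1 mouse; deviations of paired libraries correlated between -0.03 and 0.35. Other p-values measure the spread between mice or libraries labelled as separate. Of the 74 samples of the series, those without a column in these tables were not analysed here.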

Additional observations from a re-analysis of the deposited data

Results flagged for a closer look

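In groups of 4 or 5 samples, a sample set apart from the others of its group by Dixon's test was found in 9 of 97 groups examined. Chance gives about 1 in 20 in independent groups. The groups here share libraries and hold genes picked for their values, so that rate cannot be set against 9 of 97. Of the 9, 3 concern footprints of knockout library RPF_11718, which stood above the other 3 knockouts for Tnc (225.7 CPM), Fbln2 (134.0 CPM) and Lama2 (391.6 CPM). Footprints of control library RPF_11745 stood below the other 3 controls for Sparc (420.0 CPM), Mmp2 (204.0 CPM) and Dcn (386.4 CPM). Without that knockout, 39 of the 42 genes were lowered in footprints and 38 in translation efficiency; without that control the counts were 39 and 31, against 37 and 25 with every animal.

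The other 3 were Kera in the mRNA of knockout library RNA_11722, which was low within its group at 120.5 CPM but above all 4 controls, Lama2 in the muscle RNA of knockout P1895, which was high at 9.88 in the table shared with the oil mice, and Mkx in the nascent RNA of the third FX1 mouse, which was low at 8.53.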

How the results depend on the processing

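Leaving out 1 library at a time, the number of the 42 genes called ranged from 34 to 39 in footprints and 2 to 4 in RiboTag mRNA. In muscle RNA it was 0 to 8 against Cre-negative mice and 3 to 16 against oil, and in nascent RNA 2 to 5. For H3K27ac the number of called promoter regions of these genes was 0 to 0 in the acute and in the chronic set. On BCL6 peaks the number of called windows was 1 to 3. Leaving out both libraries of 1 animal, the number of genes called was 5 to 38 in translation efficiency. For footprint against mRNA it was then 20 to 27 in controls and 30 to 38 in knockouts. In translation efficiency the count was 11 without knockout RPF_11688, 9 without RPF_11722 and 10 without control RPF_11735. Over all genes the calls ranged from 2293 to 3761 in footprints, 395 to 826 in RiboTag mRNA and 310 to 1892 in translation efficiency. In muscle RNA against Cre-negative mice they were at least 1672 and stayed below the 2071 called with every animal. They ranged from 2568 to 3090 against oil and from 2205 to 4537 in nascent RNA. For footprint against mRNA they were 10036 to 10924 in controls and 10534 to 11526 in knockouts. Comp (adjusted p = 0.0295) and Chad (0.0413) joined Tnc and Kera in mRNA without knockout RNA_11718, and the Timp3 window lost its call without knockout mKO_1900 (adjusted p = 0.0537, limma). With genes near the position limit left out, which removes 16 of the 42, the counts were 21 in footprints, 15 in translation efficiency, 14 in controls and 21 in knockouts. Quantile normalization gave 1 against Cre-negative mice and 2 in nascent RNA, and against oil 4 raised and 3 lowered in place of 1 and 6; the cause was not tested. On BCL6 peaks edgeR on recovered reads called 4 of 21 windows of the 42 genes: 1 at Tnc, 2 at Timp3 and 1 at Sparc. Of these 2 were raised and the others lowered. Over all 9167 windows it called 1389, of which 1009 were raised. It called 177 of 67976 acute and 387 of 65836 chronic regions. The replicate block raised translation efficiency calls to 33, with all 25 kept and Prg4 called (adjusted p = 0.0126), and lowered nascent calls to 2, where the shared numbers do not pair the mice (deviations correlated over 0.1 in 1 of 5 pairs); it moved no other count by over 1.5 times. The signs of Mkx and Scx in footprints, neither called, turned: Mkx ranged from -0.41 to 0.27, the higher value without RPF_11673, and Scx from -0.18 without RPF_11688, with -0.07 without RPF_11735, to 0.40. Of 671 values of named genes, 586 kept direction and call, 68 lost the call, 14 gained it and 3 changed sign. DESeq2 gave 36 in footprints, 3 in mRNA (Eln, -0.43, adjusted p = 0.0202, added) and 28 in translation efficiency. The 8 footprint libraries, 3248807 counts or more each, limit the precision for Scx and Mkx.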

Other observations

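The authors' deposited table of translation efficiency listed 40 of the 42 genes, without Ly6a and Sparc, and called 34 of them lowered, with a median of -1.44 over the 40; over all 13191 genes listed there, 1887 were lowered and 1203 raised, with a median of 0.03. The authors' deposited tables of muscle RNA called 4 of the 42 genes lowered against Cre-negative mice, and 5 lowered and 1 raised against oil. Over all genes the authors' deposited tables called 6.51% against Cre-negative mice and 9.49% against oil. For nascent RNA the authors' deposited table called 3 raised and 1 lowered, and over all genes the authors' deposited table called 17% (1879 lowered and 2361 raised).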
